A study of Mus musculus with 6 samples.

Results

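The genes described here encode the plasma membrane and lysosomal amino acid transporters of 6 solute carrier families (Slc1, Slc3, Slc7, Slc36, Slc38 and Slc43). They were chosen by symbol, as probe sets annotated to exactly 1 gene symbol of these families, with the brightest probe set kept for each gene. Earlier results of these data were known when the families were chosen, so the shares called below are descriptive. This gave 42 genes of the 22180 tested: 7 in Slc1, 2 in Slc3, 15 in Slc7, 4 in Slc36, 11 in Slc38 and 3 in Slc43. RNA came from cancer cells of the prostate epithelium of Rb1F/F:Trp53F/F:PB-Cre4 mice, in which a Cre recombinase under a probasin promoter deletes floxed Rb1 and Trp53. All arrays share this genotype, and the loss of Rb1 and Trp53 in the cells was not checked here. The cells had been infected with an empty lentivirus (EV, 3 arrays) or a lentivirus for the serine/threonine kinase PIM1 (PIM1, 3 arrays), and the study asked how expression differs between them. All cells grew in DMEM with charcoal-stripped serum, insulin, transferrin, selenium, pituitary extract, epidermal growth factor and cholera toxin. Neither the number of mice or clones behind the cells nor separate cultures or infections for the 3 arrays of a group are named in the labels. The p-values therefore measure only the spread between these arrays, which may be technical. Values are the deposited array signals, taken as log2, and every difference is the mean of PIM1 minus the mean of EV.

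Amino acids cross membranes largely through carriers. Slc7 light chains such as those encoded by Slc7a5 and Slc7a11 are exchangers that reach the cell surface bound to a heavy chain from the Slc3 family, whereas the cationic transporters of the same family work alone. Slc1 and Slc38 carriers use the sodium gradient to concentrate glutamate, aspartate, glutamine and small neutral amino acids, and exchangers then trade these for leucine or cystine. Leucine and arginine inside the cell activate the growth kinase complex mTORC1 at the lysosome, and shortage of amino acids activates the transcription factor ATF4, which is known to induce several of these carriers.

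Transporter genes moved in both directions in PIM1 cells. The largest rise was that of the arginine and lysine transporter gene Slc7a2 (9.74-fold), followed by the glutamate transporter gene Slc1a3 (3.92-fold). The largest fall was that of Slc7a5, the leucine exchanger gene (2.86-fold). Of the 42 genes, 10 were higher and 7 lower at adjusted p under 0.05, against 16.1% and 10.9% of all genes tested in these directions. Together 17 of 42 were called, which is 40.5%, against 27.0% of all genes. With every array centred on its own median, the split was 11 higher and 5 lower, and over all genes the share of calls that were higher went from 59.6% to 73.5%. Without PIM1 replicate 1 or PIM1 replicate 2 there were 4 lower genes in place of 7, and still 10 higher. A call with at least a 2-fold difference was reached by 7 genes (16.7%, against 6.26% of all genes), with Slc7a2, Slc1a3, Slc43a2 and Slc38a6 higher and Slc7a5, Slc7a7 and Slc36a4 lower. The 3 PIM1 arrays lay wholly above or wholly below the 3 EV arrays for 25 of the 42 (59.5%, against 43.2%). The median difference over the 42 was -0.10, and over all genes -0.05. After median centring these medians were -0.005 and 0.05.

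**Figure D1:**
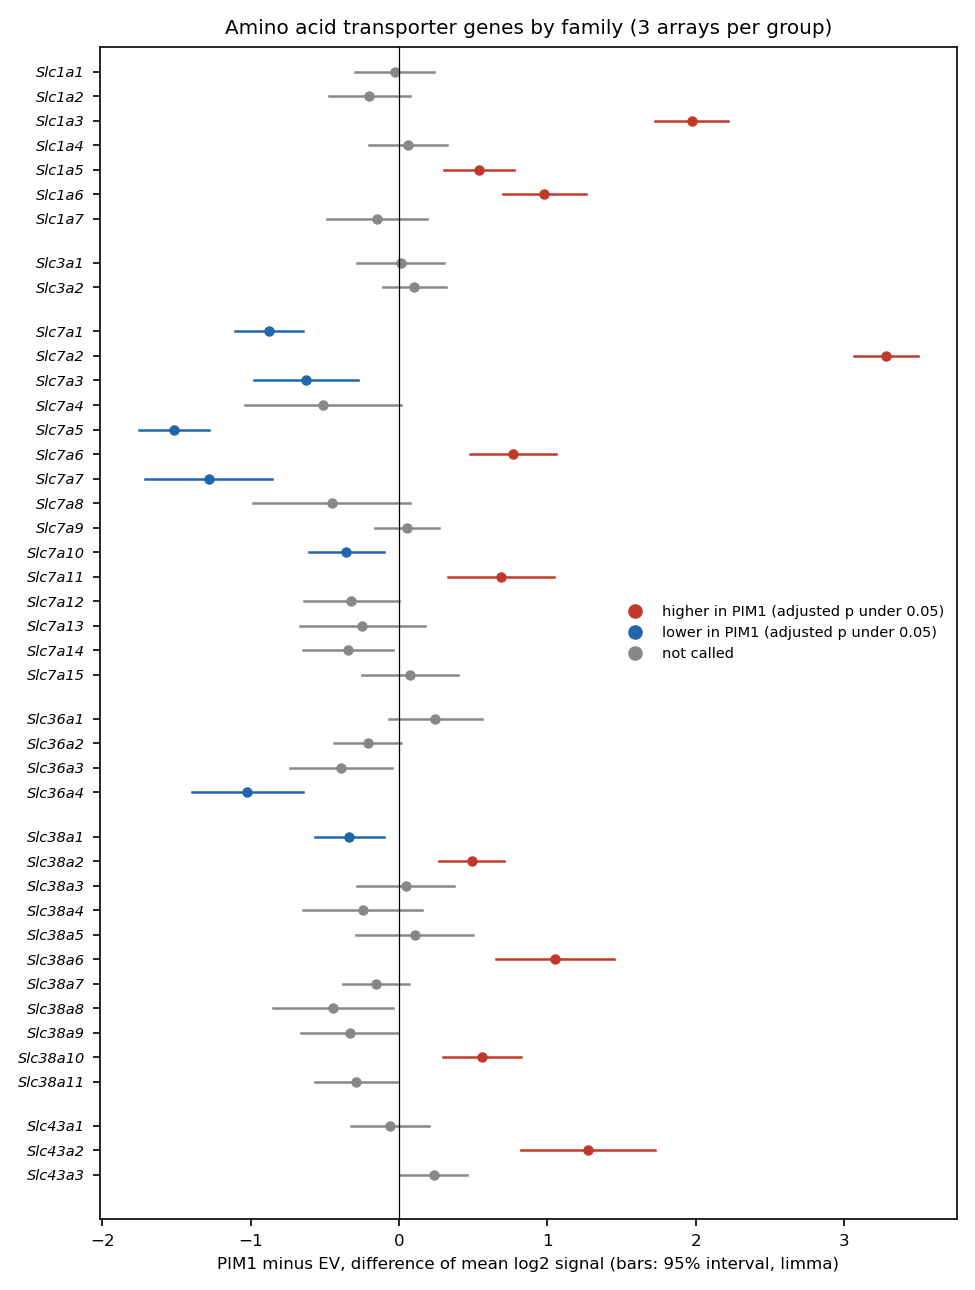
Difference of mean log2 signal, PIM1 minus EV, for the 42 transporter genes grouped by family, with 95% intervals from limma as bars. The 10 genes that were higher, the 7 that were lower and the 25 not called are coloured apart, and Slc7 holds both the largest rise (3.28) and the largest fall (-1.52).

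Bright genes were called more often than dim ones. Ranked by mean signal, 21 transporter genes fell among the brighter 11090 of all genes and 15 of them were called (71.4%, against 44.0% of those 11090). The other 21 fell among the dimmer 11090, and 2 of them were called, against 10.0% there. Both dim calls were falls, and over all dim genes 318 were higher and 793 lower. The groups did not overlap for 7 of the 21 dim transporter genes (33.3%, against 24.2% of all dim genes), with PIM1 below in each case. Over all dim genes without overlap, PIM1 lay below in 2124 and above in 556. The ranking uses the mean over both groups, so a gene that rises also moves up in it. No detection call was used, and a dim signal holds an unknown share of background.

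Checks on the arrays as a whole gave the following. Pim1 itself read 5.26, 6.25 and 5.23 in EV and 7.11, 6.89 and 6.97 in PIM1 (difference 1.41, adjusted p = 0.00455), and the labels do not say whether its probes read the introduced insert. Arrays of a group correlated at 0.990 to 0.996 and arrays of different groups at 0.963 to 0.967. Markers were read to test the label of epithelial cells. Of 6 luminal markers measured, 2 were lower and 0 higher. Their summed signal was 9.30 to 9.38 in EV and 6.48 to 6.53 in PIM1 on the log2 scale. In EV most of this sum was the keratin gene Krt18, which read 9.14 there and 4.90 in PIM1. Cdh1, the other lower gene, fell by 0.94. Its fellow marker Krt8 read 4.73 in EV and 4.65 in PIM1 and was not called, nor were Tmprss2, Pbsn and Epcam. Epcam, an epithelial adhesion molecule, was dim in EV (2.50) and in PIM1 (2.35). Of 4 basal markers 2 were lower. Of 9 fibroblast markers 7 were higher and 1 lower, with summed signals of 11.08 to 11.12 in EV and 12.91 to 12.98 in PIM1. Macrophage and leukocyte markers (1 of 6 lower, 0 higher) and endothelial markers (0 of 5 called) had sums of 6.33 to 6.51 and 5.11 to 5.30 in EV, and of 5.69 to 5.93 and 4.99 to 5.30 in PIM1. The part of these marker shifts in the transporter differences was not tested.

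The cationic transporters, which carry arginine, lysine and ornithine, moved in opposite directions. Slc7a2, known for its induction in activated macrophages and its expression in liver, read 6.38, 6.39 and 6.39 in EV and 9.63, 9.62 and 9.75 in PIM1. Every PIM1 array thus lay more than 3 log2 units above every EV array, and the arrays of a group lay close together. The difference was 3.28 (SE 0.093, 95% interval 3.07 to 3.50, adjusted p = 3.91e-07). Slc7a1, the widely expressed cationic transporter gene, went the other way. It read 8.19, 8.26 and 8.09 in EV and 7.33, 7.22 and 7.37 in PIM1, with no overlap, a fall of 1.83-fold (difference -0.87, 95% interval -1.11 to -0.64, adjusted p = 0.000417). Slc7a3, a cationic transporter best known from neural tissue, read 4.79, 4.51 and 4.31 in EV and 3.70, 3.96 and 4.08 in PIM1. Its highest PIM1 array came close to its lowest EV array, and the difference of -0.63 (SE 0.153, adjusted p = 0.0181) did not pass without PIM1 replicate 1 (adjusted p = 0.0688) or PIM1 replicate 2 (0.0515). Slc7a4, a relative of these genes, overlapped between the groups at a dim signal, with a difference of -0.51 (adjusted p = 0.143). Enzymes that consume arginine were among those that rose. Nos2, the inducible nitric oxide synthase, read 3.51, 3.59 and 3.31 in EV and 6.40, 6.53 and 6.60 in PIM1 (difference 3.04, adjusted p = 1.25e-06). Arg2, the mitochondrial arginase, read 3.13, 3.69 and 3.19 in EV and 5.21, 5.30 and 5.72 in PIM1 (difference 2.07, adjusted p = 0.000124). For both enzymes the EV signal was dim and no PIM1 array overlapped it.

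Among the genes of the heteromeric exchangers no heavy chain was called, while light chains moved in both directions. Slc3a2, which encodes the heavy chain CD98 that brings most of these light chains to the surface, read 9.52, 9.59 and 9.55 in EV and 9.62, 9.72 and 9.62 in PIM1. Each PIM1 array exceeded each EV array, but by little, and the difference of 0.10 (95% interval -0.11 to 0.32, adjusted p = 0.451) was not called. Slc3a1, the heavy chain of the cystine and dibasic amino acid exchanger of kidney and gut, was dim, at 3.36, 3.12 and 3.29 in EV and 3.13, 3.20 and 3.48 in PIM1. The groups overlapped (difference 0.01, 95% interval -0.28 to 0.30), and its light chain gene Slc7a9 differed by 0.06 (adjusted p = 0.699).

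The light chain genes for large or small neutral amino acids fell or were not called. Slc7a5, whose product LAT1 imports leucine and other large neutral amino acids in exchange for glutamine, read 10.04, 9.91 and 9.88 in EV and 8.51, 8.45 and 8.32 in PIM1. The groups were far apart relative to their spread, and the difference was -1.52 (SE 0.103, 95% interval -1.75 to -1.28, adjusted p = 2.37e-05). Its relative Slc7a8, a light chain of broader range, read 2.92, 3.44 and 3.92 in EV and 3.03, 3.08 and 2.80 in PIM1. The EV arrays spread widely at a dim signal and the difference of -0.45 was not called (adjusted p = 0.187). Without EV replicate 1, the lowest EV array, it was -0.71 and passed (adjusted p = 0.0238). Slc7a10, the light chain for glycine, alanine and serine, was dim in EV (3.32 ± 0.10, SD, n = 3) and in PIM1 (2.96 ± 0.14). Its difference of -0.35 passed narrowly (adjusted p = 0.0482) and did not hold under 11 of 13 alternatives, where adjusted p ran from 0.0506 to 0.209.

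The light chain genes that exchange cationic for neutral amino acids moved in opposite directions. Slc7a6, the widely expressed gene of this pair, read 7.72, 8.08 and 7.77 in EV and 8.59, 8.54 and 8.74 in PIM1. It rose by 0.77 (SE 0.125, adjusted p = 0.00274), and its EV and PIM1 arrays did not overlap. Slc7a7, which is mutated in lysinuric protein intolerance and is best known from kidney, gut and macrophages, read 4.68, 4.83 and 4.21 in EV and 3.33, 3.03 and 3.51 in PIM1. It fell by 1.28 (SE 0.186, adjusted p = 0.00147), with every PIM1 array below every EV array. The macrophage marker gene Csf1r fell in the same arrays, by 1.35, while the other 5 macrophage and leukocyte markers were not called. The part of such cells in the Slc7a7 difference was not tested.

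Slc7a11 encodes the light chain of the cystine and glutamate exchanger, which supplies cysteine for glutathione. It read 5.76, 6.11 and 5.93 in EV and 6.56, 6.40 and 6.91 in PIM1. The groups did not overlap, with PIM1 higher by 0.69 (SE 0.155, 95% interval 0.33 to 1.04, adjusted p = 0.0128). Averaged with its dim second probe set, which read 2.33 in EV and 2.39 in PIM1, it still passed, with a smaller difference of 0.37 (adjusted p = 0.0349). Cth, an enzyme that makes cysteine from cystathionine, rose by 1.62 and Gss, the glutathione synthetase gene, by 0.72. The glutamate-cysteine ligase genes Gclc and Gclm differed by 0.13 and 0.18 and were not called (adjusted p = 0.420 and 0.273). The remaining Slc7 genes, Slc7a12, Slc7a13, Slc7a14 and Slc7a15, were dim and not called, with differences of -0.32, -0.25, -0.34 and 0.08.

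The promoter of Slc7a11 holds a pair of C/EBP-ATF response elements, the sites through which ATF4 and C/EBP factors are known to act. RefSeq windows of assembly GRCm38.p6, from 250 bases before to 50 bases after a gene's start, were held for 31 of the 42 genes, 12 of them called. The element was searched as TGATGNAA on both strands. It was found in 3 of the 31 genes, Slc7a11, Slc7a7 and Slc1a4, and in 4.51% of all genes with a window. These windows are shown because the genes differ in direction: Slc7a11 rose, Slc7a7 fell and Slc1a4 was not called. They lie at chr3:50443564-50443863, chr14:54417895-54418194 and chr11:20332664-20332963, all on the minus strand. Each is written 5′ to 3′ along its gene, with the matches in capitals.
Slc7a11: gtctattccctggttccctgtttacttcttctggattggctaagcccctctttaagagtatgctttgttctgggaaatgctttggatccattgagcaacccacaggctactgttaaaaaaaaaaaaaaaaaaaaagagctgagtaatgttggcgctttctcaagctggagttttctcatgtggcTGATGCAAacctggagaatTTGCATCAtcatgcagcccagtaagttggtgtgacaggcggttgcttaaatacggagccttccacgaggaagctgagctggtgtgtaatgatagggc
Slc7a7: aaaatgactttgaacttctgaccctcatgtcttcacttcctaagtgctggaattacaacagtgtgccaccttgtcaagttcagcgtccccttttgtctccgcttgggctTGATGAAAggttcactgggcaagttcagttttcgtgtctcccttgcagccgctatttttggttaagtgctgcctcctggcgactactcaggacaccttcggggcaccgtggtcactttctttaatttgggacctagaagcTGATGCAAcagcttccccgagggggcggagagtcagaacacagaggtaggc
Slc1a4: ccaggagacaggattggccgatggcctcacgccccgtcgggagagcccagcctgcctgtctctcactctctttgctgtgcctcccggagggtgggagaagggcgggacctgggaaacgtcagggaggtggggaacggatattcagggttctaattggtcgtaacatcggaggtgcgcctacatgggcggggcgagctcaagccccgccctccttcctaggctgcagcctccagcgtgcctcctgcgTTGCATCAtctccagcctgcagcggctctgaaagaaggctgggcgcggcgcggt
In Slc7a11 the matches begin 66 and 47 bases before the start, the first on the gene's strand and the second on the other. In the Slc7a7 window shown they begin 141 and 1 bases before the start, and in Slc1a4 the single match begins 4 bases before it. The match nearest the start in Slc7a7 also falls in another window of that gene, 243 bases before its start. The remaining Slc7a7 windows hold none. The antioxidant response element, searched as TGACNNNGC, was found in 5 of the 31 genes (14.0% of all genes), 2 of them higher, 1 lower and 2 not called. The E-box CACGTG was found in 7 of the 31 (8.09% of all genes), 1 of them higher, 0 lower and 6 not called. For the first pair of elements, matches were held both by genes that rose and by genes that fell. The 11 transporter genes without a window were not searched, Slc7a2 and Slc7a5 among them.

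Glutamate and glutamine carriers of the Slc1 family rose where they were called. Slc1a3, the glutamate and aspartate transporter best known from astrocytes, read 6.76, 6.55 and 6.69 in EV and 8.62, 8.55 and 8.75 in PIM1. The groups were separated by many times their spread (difference 1.97, SE 0.107, adjusted p = 7.33e-06). Slc1a5, the sodium-dependent carrier that exchanges glutamine, serine and alanine, read 7.77, 7.79 and 7.56 in EV and 8.24, 8.28 and 8.22 in PIM1. It rose by 0.54 (SE 0.103, 1.45-fold, adjusted p = 0.00587), and its PIM1 arrays lay above the EV arrays and close together. A dim second probe set of Slc1a5 differed by 0.60 and was not called over all probe sets (adjusted p = 0.186). Slc1a6, a glutamate transporter of cerebellar Purkinje cells, read 4.04, 3.70 and 3.83 in EV and 4.70, 4.92 and 4.88 in PIM1, a rise of 0.98 (adjusted p = 0.000653) at a modest signal. The other 4 genes were not called. Slc1a4, which carries alanine, serine and cysteine, differed by 0.06 at a clear signal (7.47 in EV), with a 95% interval from -0.20 to 0.32. The glutamate transporter genes Slc1a1, Slc1a2 and Slc1a7 were dim and differed by -0.03, -0.20 and -0.15.

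**Figure D2:**
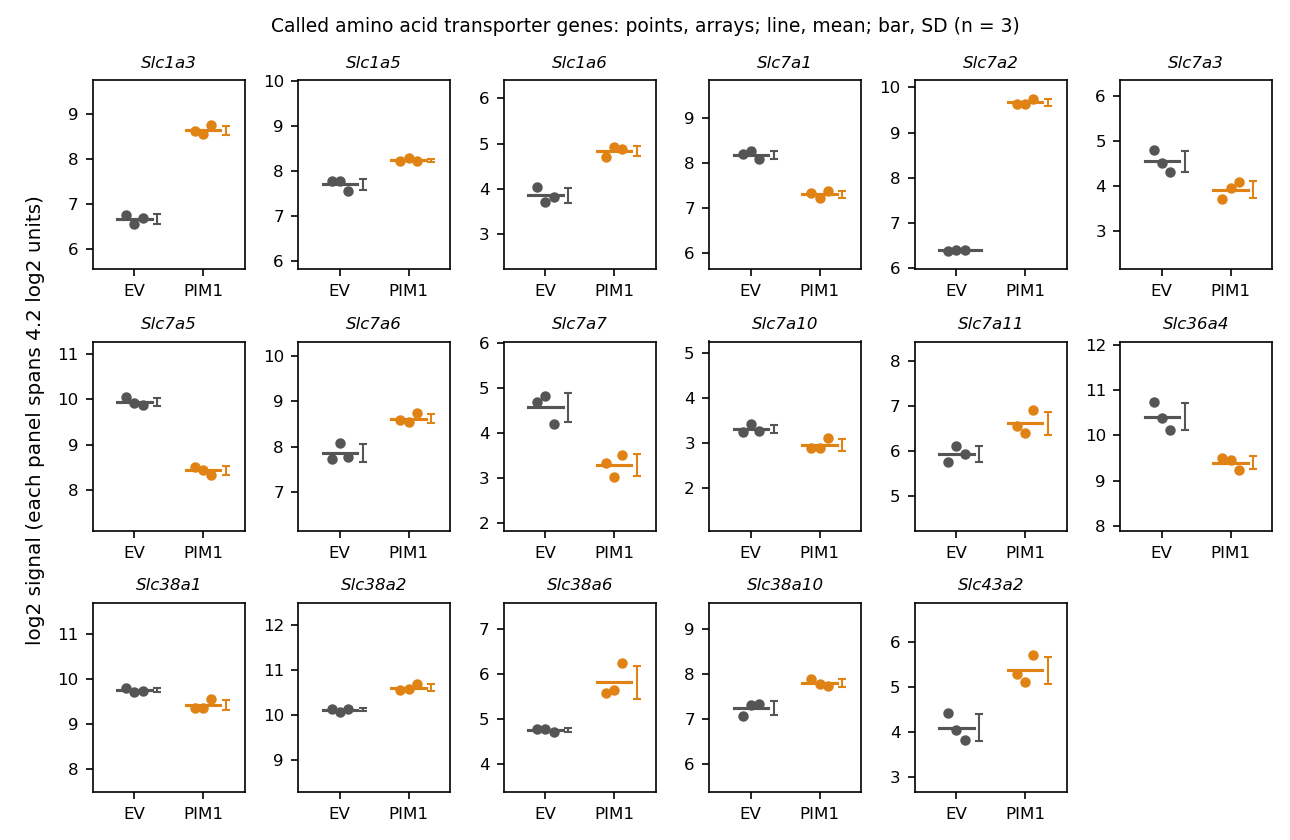
Log2 signal on each of the 3 EV and 3 PIM1 arrays for the 17 called transporter genes, with the group mean as a line and the SD as a bar; each panel spans the same range. In every panel the PIM1 points lie wholly above or wholly below the EV points, with the widest gap for Slc7a2 and the narrowest for Slc7a10 and Slc38a1.

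The sodium-coupled neutral amino acid transporters of Slc38 moved both ways as well. Slc38a2, the carrier of alanine, serine and glutamine that cells are known to raise when amino acids run short, read 10.13, 10.07 and 10.13 in EV and 10.54, 10.57 and 10.69 in PIM1. It rose by 0.49 (SE 0.095, 1.41-fold, adjusted p = 0.00617), a small difference that was still larger than the spread of either group. Its close relative Slc38a1, which also takes up glutamine, read 9.80, 9.71 and 9.74 in EV and 9.35, 9.36 and 9.54 in PIM1. The difference of -0.33 (adjusted p = 0.0408) lost its call without any 1 of the EV arrays or without PIM1 replicate 1 or 2 (adjusted p from 0.0675 to 0.140). The call was also lost after median centring (0.145) and with the replicate number as a block. Slc38a6 rose from 4.79, 4.77 and 4.71 in EV to 5.57, 5.63 and 6.23 in PIM1, with PIM1 replicate 3 above the others (difference 1.05, adjusted p = 0.00276). Slc38a10 read 7.05, 7.31 and 7.34 in EV and 7.88, 7.77 and 7.72 in PIM1, a rise of 0.56 without overlap (adjusted p = 0.00808). Slc38a9, the lysosomal arginine sensor of mTORC1, read 6.08, 6.004 and 5.89 in EV and 5.57, 5.46 and 5.95 in PIM1. PIM1 replicate 3 lay within the EV range, and the difference of -0.33 was not called (adjusted p = 0.126). It passed without that array (-0.48, adjusted p = 0.0268) and after quantile normalization (-0.47, adjusted p = 0.0369). Slc38a7, a lysosomal glutamine transporter, differed by -0.15 (adjusted p = 0.291). The other 5 genes, Slc38a3, Slc38a4, Slc38a5, Slc38a8 and Slc38a11, were dim and not called, with differences of 0.05, -0.25, 0.11, -0.44 and -0.29.

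Genes for facilitated and proton-coupled carriers completed the set. Slc43a2 encodes LAT4, a uniporter for leucine and related amino acids that needs no heavy chain. It read 4.41, 4.05 and 3.81 in EV and 5.28, 5.11 and 5.71 in PIM1. The rise of 1.28 (SE 0.196, 2.42-fold, adjusted p = 0.00195) came with no overlap, at a modest signal that was low in EV. Slc43a1, which encodes the related LAT3, was dim and differed by -0.06 (adjusted p = 0.743). Slc43a3, a purine nucleobase transporter by function, read 8.54, 8.47 and 8.44 in EV and 8.64, 8.70 and 8.82 in PIM1. Its arrays did not overlap, and the difference of 0.23 was not called (adjusted p = 0.121).

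In the Slc36 family of proton-coupled carriers, Slc36a4 gave different answers from its probe sets. The brighter read 10.74, 10.39 and 10.13 in EV and 9.50, 9.45 and 9.23 in PIM1, a fall of 1.02 (SE 0.163, adjusted p = 0.00240). The dimmer read 6.56, 6.57 and 6.38 in EV and 6.54, 6.79 and 7.08 in PIM1, a difference of 0.30 that was not called over all probe sets (adjusted p = 0.176). Their mean differed by -0.36 and was not called (adjusted p = 0.0639), so the fall rests on the brighter probe set. Slc36a1, which exports amino acids from the lysosome, differed by 0.24 (adjusted p = 0.230), and Slc36a2 and Slc36a3 were dim, with differences of -0.21 and -0.39.

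Genes that sense or use the transported amino acids were read from 4 further lists. Of 36 measured genes of mTORC1 and its amino acid sensing, 11 were higher and 4 lower (41.7% called, against 27.0% of all genes; median difference 0.18). Most of the list is bright: 15 of its 34 genes among the brighter 11090 were called (44.1%, against 44.0% there), so the count is near the background at that brightness. The sestrin genes Sesn1, Sesn3 and Sesn2, whose products inhibit mTORC1 signalling (Sestrin2 as a leucine sensor), rose by 1.42, 0.83 and 0.68. Castor2, of the arginine sensor family, rose by 1.04, and Tsc1, part of a complex that inhibits mTORC1, by 0.94. Fnip2, a folliculin partner, fell by 0.84, Mios, a subunit of the GATOR complex that relays amino acid sufficiency, by 0.72, and Seh1l, of the same complex, rose by 0.69.

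Of 16 genes of the amino acid deprivation response, 5 were higher and 3 lower (50% called, against 27.0%; median 0.03). Among its 15 bright genes 53.3% were called, against 44.0%. Atf4 read 9.50, 9.81 and 9.84 in EV and 9.39, 9.40 and 9.46 in PIM1. The PIM1 arrays lay below the EV arrays, yet the difference of -0.30 was not called (adjusted p = 0.0989). The transcription factor genes Cebpb, Atf3 and Ddit3 rose by 2.29, 0.68 and 0.66, and the lipoprotein receptor gene Vldlr by 0.65. Asns, the asparagine synthetase gene and a standard ATF4 target, fell by 0.57 (adjusted p = 0.00988). Ppp1r15a, a phosphatase subunit, rose by 0.40 and lost its call without EV replicate 1 or PIM1 replicate 1 or 2 (adjusted p = 0.0743, 0.0701 and 0.108), and after quantile normalization or cyclic loess (0.118 and 0.0691).

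Of 28 measured enzymes that use imported amino acids, 11 were higher and 1 lower (42.9% called, against 27.0%; median 0.13). Among its 23 bright genes 52.2% were called, against 44.0%. Besides Nos2, Arg2 and Cth, the enzymes of branched-chain amino acid breakdown Bckdhb and Bckdha rose by 1.45 and 0.86, and Gfpt1, which uses glutamine to make hexosamines, by 0.82. The member that fell was Bcat1, the cytosolic branched-chain aminotransferase (-0.35, adjusted p = 0.0377). Of 30 genes from other amino acid transporter families, 6 were higher and 0 lower (20.0% called, against 27.0%; median 0.09). Among its 16 bright genes 37.5% were called, against 44.0%. Of these 6, 5 act in mitochondria: Slc25a44 for branched-chain amino acids (0.78), Slc25a38 for glycine (0.71), Slc25a22 for glutamate (0.66), Sfxn1 for serine (0.64) and Slc25a13 for aspartate and glutamate (0.45). The other was Slc16a10, an aromatic amino acid carrier of the plasma membrane (0.57). Mitochondrial carriers are a large part of this list, and Slc25a2, Slc25a12, Slc25a15, Slc25a18, Slc25a29 and Sfxn3 were not called. Slc16a10 lost its call without any 1 of EV replicates 1 and 2 and PIM1 replicates 1, 2 and 3 (adjusted p from 0.0560 to 0.114). Slc25a13 lost it without EV replicate 1 or 3 or PIM1 replicate 1 or 3 (0.0549 to 0.0618). After quantile normalization neither passed (0.0674 and 0.0528), nor did Slc16a10 after cyclic loess (0.0630).

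**Figure D3:**
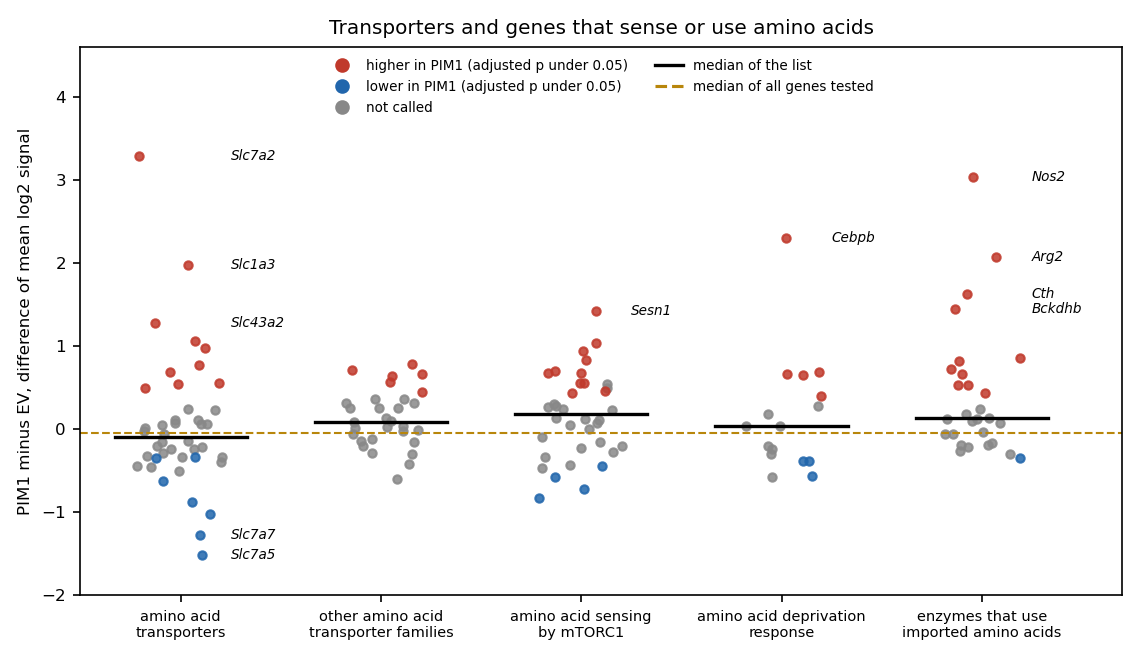
Difference of mean log2 signal, PIM1 minus EV, for each transporter gene and each gene of the 4 further lists, with the median of a list as a black line and the median of all genes tested (-0.05) dashed. Most genes lie within 1 log2 unit of 0, with Slc7a2 (3.28) and Nos2 (3.04) highest and Slc7a5 (-1.52) lowest.

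The 25 transporter genes that were not called had differences from -0.51 (Slc7a4) to 0.24 (Slc36a1). In 24 of them the 95% interval stayed within 1 log2 unit either way, so a 2-fold difference in signal lay outside it. Slc7a4 was the exception, and Slc7a8 came close, with a lower limit of -0.98. Of the 25 genes, 19 were dim, with array values from 1.41 to 4.15. A dim signal holds an unknown share of background, so for these genes the intervals do not exclude a 2-fold difference in RNA. In 8 of the 25 the groups did not overlap, 2 with PIM1 above and 6 with PIM1 below. Over all genes tested 43.2% did not overlap, but this share includes called genes, so it is not a like background for the 25. Among the dimmer 11090 genes, those without overlap had PIM1 below in 2124 and above in 556.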

How the data were processed

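Gene expression was measured on 6 mouse arrays, grouped by sample title. The deposited values are 1 log2 signal per probe set and array, made by the authors with Affymetrix Expression Console per the submitters' processing notes, which give no version. Their log base is taken from the range (0.34 to 13.0), and no source used here gives the background correction, summarization or normalization, so nothing was scaled again. Of 41345 probe sets, 23521 had 1 symbol, 1814 several and 16010 none. All 42 members matched RefSeq (GRCm38.p6) by Entrez identifier. The brightest probe set stood for each of 22180 genes.

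PIM1 was compared with EV by limma's moderated test (version 3.58.1, R 4.3.3) with no covariate, two-sided, with Benjamini-Hochberg adjustment over all genes and a threshold of 0.05, and the scripts were tested on simulated data. The members, lists and motifs were chosen with earlier results of these data known. All members are named. Values on every array are given for called members that differ by at least 0.5 and for 9 fixed members, and from each list the 6 largest called differences. Gclc, Gclm, Gss, Bcat1, Atf4, Sesn2, Seh1l, Csf1r, Krt18, Cdh1, Krt8, Tmprss2, Pbsn and Epcam were chosen after their values were seen. Alternatives were variance model, normalization, brightness, probe set rule, replicate block and leaving out each array. The number of arrays limits the precision.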

Additional observations from a re-analysis of the deposited data

How the results depend on the processing

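Of the 17 called transporter genes, 13 kept their call and direction under every alternative run, and no member changed sign with a call. The count of higher genes was 10 or 11 throughout, with the same 10 genes included each time. The count of lower genes was 4 to 8 when an array was left out, and 5 to 7 under the other alternatives. Slc7a3, Slc7a10, Slc38a1 and Slc36a4 each lost the call at least once, and 6 of the 25 genes not called passed at least once. Slc7a12 passed without EV replicate 2 (adjusted p = 0.0250), Slc7a14 without EV replicate 3 (0.0297), Slc36a3 without EV replicate 2 (0.0475), and Slc43a3 with a trended and robust variance (0.0266), after median centring (0.0445) and among the brighter 11090 genes (0.0484). Genes without overlap numbered 20 to 25 under another normalization or probe set rule. They numbered 26 to 28 when an array was left out, which can only keep or raise this count. The cause of the other shifts was not tested.

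EV and PIM1 arrays of the same number deviated from their group means with correlations of 0.056, -0.031 and 0.009. Arrays of different numbers gave -0.063 to 0.055, so no deviation shared by number was seen. Whether the numbers mark a shared culture or infection is not named in the labels. With the replicate number as a block (replicate block) 10 genes were higher and 5 lower, and Slc38a1 and Slc7a10 lost their calls (adjusted p = 0.0805 and 0.0857).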
